A study of Arabidopsis thaliana with 12 samples.

Results

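The 132 genes described here were lower in every root library treated with BiAux than in every library without it. They were taken from a table of 20814 genes by 1 rule: the highest of the 6 libraries with BiAux (BiAux+IAA and BiAux) had to be below the lowest of the 6 libraries without it (IAA and mock), and the mean over the 12 libraries had to be at least 16.3 normalized counts, which is 0.5 CPM (counts scaled by the library total). Of the 19338 genes that passed this mean, 0.688% were separated in this direction and 0.471% in the opposite one. Which direction held more genes depended on the scaling. After rescaling each library by median-of-ratios factors, 96 genes were lower by the same rule and 121 were higher. A further gene lower in all libraries with BiAux, AT1G36240, which encodes a ribosomal protein, was left out by the rule. The members were thus chosen by their measured values with and without BiAux, and that difference is given for the members as a description without a test.

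The libraries are poly(A) RNA of roots from wild-type Arabidopsis (Col-0) seedlings, which carry no transgene or mutation and were grown for 4 d at 22 °C in diluted MS medium and then moved for 3 d to fresh medium. The medium held 5 µM BiAux plus 10 nM IAA, 5 µM BiAux, 10 nM IAA or mock, with 3 libraries each. BiAux is a synthetic bis-methyl auxin conjugated with N-glucoside, and IAA is indole-3-acetic acid, the main natural auxin. The deposited values are normalized counts that summed to between 32413978 and 32720463 per library. The study's methods state only a common number of reads per library. The original depth of each library is thus not known, and no counting error can be given. Nothing states that libraries of 1 treatment came from separate cultures, so the p-values below measure only the spread between these libraries.

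Libraries are named by their titles. For 7 of the 12 libraries the treatment given in a second field of the labels is not that of the title: BiAux for mock 3, IAA for BiAux 1 and BiAux 2, and both compounds for BiAux 3 and for the 3 IAA libraries. In addition, the study's supplement lists changes for BiAux against mock. By an earlier comparison, not repeated here, these changes follow the libraries titled IAA and not those titled BiAux. All directions below rest on the titles: if those of BiAux and IAA were exchanged, the members would be genes lower in all libraries with IAA, and the comparisons of IAA below would be those of BiAux. Of 11 markers of root cell types, none was at 0 in any library, and 0 were called between libraries with and without BiAux. Their summed level was between 32317 and 36107 in BiAux+IAA, 36313 and 38535 in BiAux, 34513 and 39059 in IAA, and 32674 and 38747 in mock. The 5 shoot markers measured summed to between 828 and 1132 in BiAux+IAA, 750 and 795 in BiAux, 686 and 1048 in IAA, and 1205 and 1299 in mock, and none was at 0. Of these, RBCS1A, the small subunit of Rubisco, was called lower with BiAux (log2 difference -0.61, SE 0.13). Their part in the results below was not tested. In bulk roots, fewer cells of a type and less RNA per cell cannot be told apart.

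Auxin enters the nucleus and lets its receptors mark Aux/IAA repressors for breakdown, which frees response factors to transcribe early auxin genes. Among these early genes are the Aux/IAA repressors themselves and the GH3 enzymes, which join auxin to amino acids and so lower the pool of free hormone. Roots are fed by sucrose from the shoot, and genes for the breakdown of amino acids and lipids are known to be switched on when carbon is short.

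The size of the difference varied widely among the members. On the log2(normalized count + 16.3) scale, the difference between libraries with and without BiAux, averaged over both IAA states, had a median of -0.40 over the members, against -0.03 over all genes tested. It ranged between -1.63 and -0.09. In 9 members it was beyond -1, in 49 beyond -0.5 and in 64 between -0.5 and -0.2, whereas 19 members differed by less than 0.2. A negative difference of any size was found in 60.3% of all genes tested, or in 48.0% after rescaling by median-of-ratios factors. The counts of negative differences in the lists below stand beside the first of these shares and were not repeated after rescaling. Unless stated otherwise they include the members, whose sign the rule fixes. Over all genes tested, 1.11% were called lower, that is with a log2 difference below -0.5 and a limma p, not adjusted, of less than 0.05. The members were thus chosen for their order across libraries and not for their size, and 13 of them had under 50% of their level without BiAux.

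**Figure D1:**
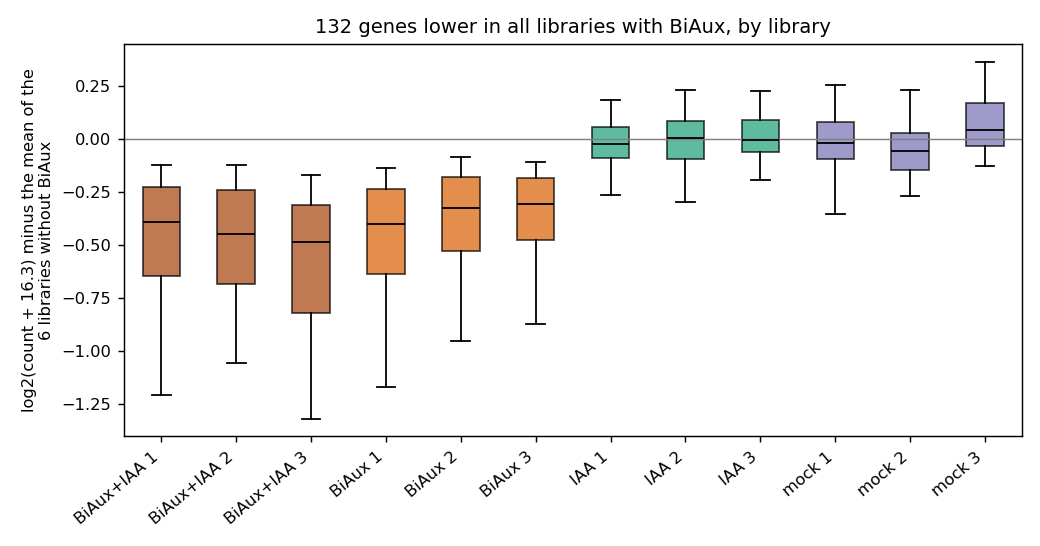
Level of the 132 members in each library, as log2(normalized count + 16.3) minus the mean of the 6 libraries without BiAux. Boxes span the quartiles with the median as a line and whiskers reach the 5th and 95th percentiles; medians lay between -0.48 and -0.30 in the 6 libraries with BiAux and between -0.06 and 0.04 in the 6 without.

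The rule requires every library with BiAux to lie below all those without it, so the levels by library are only a description. Relative to the mean without BiAux, the median member was at -0.39, -0.45 and -0.48 in the 3 BiAux+IAA libraries and at -0.40, -0.33 and -0.30 in the 3 BiAux libraries. It was at -0.02, 0.0046 and -0.0035 in the IAA libraries and at -0.02, -0.06 and 0.04 in the mock libraries. Which genes enter depends on single libraries. Without mock 1 the same rule found 343 genes and without mock 2 it found 222, and after rescaling by median-of-ratios factors it found 96, of which 76 were among the 132. Leaving out a library loosens the rule, so apart from the limit on the mean the number of genes could only rise.

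Both members of the sugar transporter list export sucrose. SWEET11 and SWEET12 encode plasma membrane sucrose transporters that act in phloem loading in leaves. SWEET12 had 1312, 1333 and 1103 normalized counts in BiAux+IAA and 1654, 1732 and 1730 in BiAux, against 3377, 3287 and 2781 in IAA and 3415, 2714 and 2814 in mock. The levels in BiAux+IAA did not overlap those in BiAux, and both lay far below all libraries without BiAux, at 48.2% of their mean (log2 difference -1.06, SE 0.08). SWEET11 had 1891, 1727 and 1461 in BiAux+IAA and 1880, 1610 and 1724 in BiAux, against 3301, 3303 and 2626 in IAA and 2930, 2624 and 2707 in mock. Here BiAux+IAA and BiAux overlapped, and the level was 58.8% of that without BiAux (-0.76, SE 0.08). Of 19 tested genes of the SWEET, STP and SUC sugar transporter families, these 2 were the members, 10 had a negative difference and the median of the list was -0.04. SUC2, the phloem sucrose loader, differed by -0.04 (SE 0.07) and SWEET4 by 0.54 (SE 0.13).

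The sequences before both gene starts are shown because the pair shares a family and the direction. They are the 300 bases upstream in RefSeq's TAIR10.1 assembly, read 5′ to 3′ on the gene's own strand, which is the minus strand for both: chr3:18054833-18055132 for SWEET11 and chr5:7973996-7974295 for SWEET12. Capitals mark TTGAC, the core of the W-box that WRKY factors bind, and in SWEET11 also TGACGT, which TGA factors bind, each read on either strand; in SWEET11 a match to each runs together as one stretch.

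SWEET11: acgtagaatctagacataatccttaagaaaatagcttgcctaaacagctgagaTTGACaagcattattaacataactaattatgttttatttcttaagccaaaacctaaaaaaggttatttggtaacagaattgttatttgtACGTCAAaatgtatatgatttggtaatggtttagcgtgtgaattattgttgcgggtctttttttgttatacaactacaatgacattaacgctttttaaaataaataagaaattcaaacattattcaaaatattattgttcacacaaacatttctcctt

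SWEET12: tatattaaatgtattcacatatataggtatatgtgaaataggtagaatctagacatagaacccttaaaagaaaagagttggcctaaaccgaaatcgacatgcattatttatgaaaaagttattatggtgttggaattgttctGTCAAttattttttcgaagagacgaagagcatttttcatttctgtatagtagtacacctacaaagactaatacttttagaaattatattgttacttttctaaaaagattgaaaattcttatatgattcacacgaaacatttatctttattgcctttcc

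Early auxin genes of the GH3 and Aux/IAA lists were members too. GH3.1 and GH3.5 (listed as WES1) encode enzymes that conjugate IAA to amino acids. GH3.1 had 166, 140 and 184 normalized counts in BiAux+IAA and 132, 192 and 184 in BiAux, against 280, 265 and 316 in IAA and 219, 332 and 309 in mock. Its lowest library without BiAux, mock 1, stood apart from the other mock libraries, and the log2 difference was -0.73 (SE 0.12). WES1 had 1060, 1093 and 1029 in BiAux+IAA and 935, 1046 and 1048 in BiAux, against 1792, 1768 and 1945 in IAA and 1215, 1437 and 1508 in mock. The IAA libraries were all above the mock libraries, whereas BiAux+IAA and BiAux overlapped (-0.61, SE 0.06). Of 8 tested GH3 genes, 7 had a negative difference, with a list median of -0.29, and GH3.3 was at -0.81 (SE 0.17) without being a member.

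Of 24 tested Aux/IAA repressor genes, 2 were members. IAA1 had 114, 120 and 113 normalized counts in BiAux+IAA and 152, 162 and 157 in BiAux, against 176, 191 and 204 in IAA and 216, 219 and 256 in mock. The 4 treatments did not overlap each other in this gene, with BiAux+IAA lowest and mock highest (log2 difference -0.58, SE 0.07). IAA2 had 1023, 1110 and 1007 in BiAux+IAA and 1104, 1207 and 1144 in BiAux, against 1511, 1553 and 1432 in IAA and 1563, 1300 and 1607 in mock, and its treatments overlapped within each BiAux state (-0.44, SE 0.06). The list had 20 negative differences and a median of -0.11. IAA19 missed the rule by a tie, since its highest library with BiAux and its lowest without both held 196. None of the 31 SAUR genes tested, another early auxin family, was a member, and their median was 0.05. LBD16, a transcription factor that acts in lateral root initiation, was the single member of 21 tested LBD genes, at 361, 368 and 346 in BiAux+IAA and 317, 382 and 333 in BiAux, against 440, 463 and 546 in IAA and 414, 411 and 478 in mock (-0.37, SE 0.07).

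**Figure D2:**
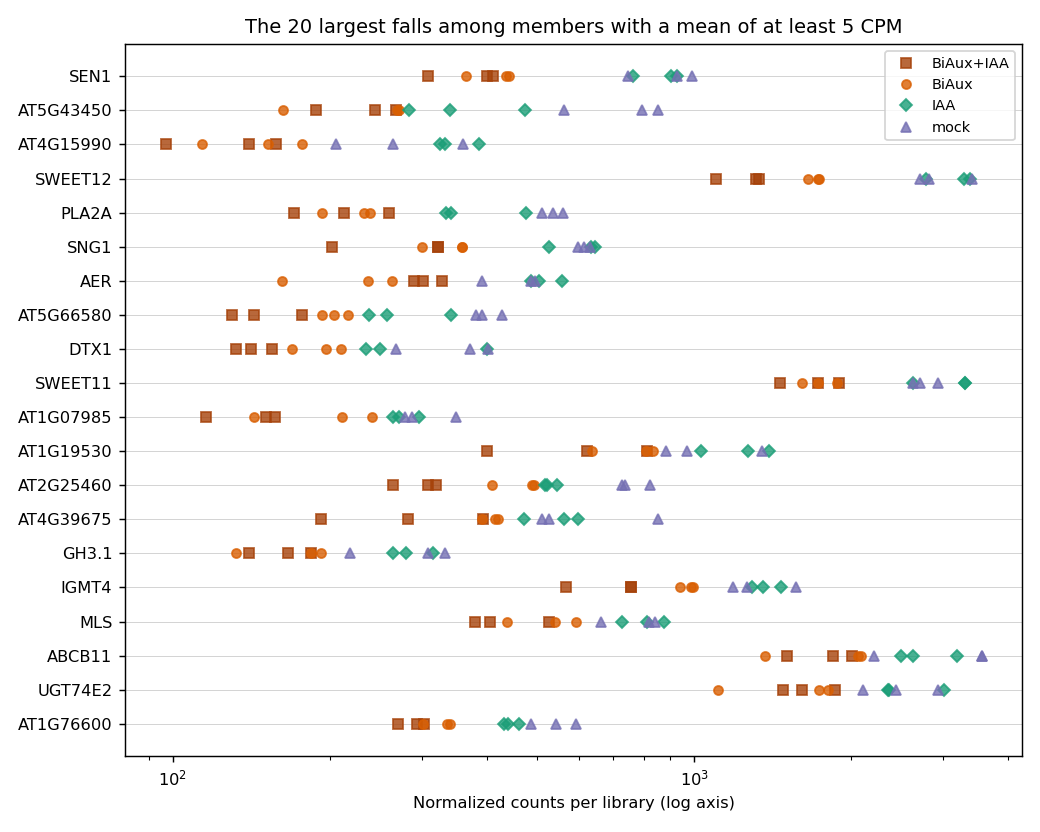
Normalized counts per library, on a log axis, of the 20 members with the largest log2 difference among those with a mean of at least 5 CPM, largest at the top. In each row all BiAux+IAA and BiAux points lie to the left of all IAA and mock points, as the rule requires; the gap is wide for SEN1 and SWEET12 and narrow for AT1G19530.

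The jasmonate list held members with mostly small differences. Of 20 tested jasmonate genes, 3 were members, 16 had a negative difference and the median was -0.22. LOX4, a lipoxygenase of jasmonate synthesis, had 24, 67 and 60 normalized counts in BiAux+IAA and 60, 48 and 57 in BiAux, against 72, 74 and 105 in IAA and 85, 77 and 104 in mock. BiAux+IAA 1 stood apart here, and the log2 difference was -0.60 (SE 0.17). AOS, allene oxide synthase of the same pathway, was at 82.2% of its level without BiAux (-0.28, SE 0.06), and JAZ1, a jasmonate repressor, was at 79.9% (-0.32, SE 0.05). VSP1, a jasmonate target known from leaves, differed by 0.69 (SE 0.19) in the opposite direction.

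Among transcription factors, 3 of 75 tested NAC genes, 1 of 23 ERF, 1 of 60 WRKY and 1 of 82 MYB genes were members. The NAC members were NAC3 (-0.66, SE 0.09), ATAF1 (-0.28, SE 0.06) and NAC032 (-0.22, SE 0.08), which are known from responses to drought and abscisic acid. NAC032 had 1871, 1428 and 1716 normalized counts in BiAux+IAA and 1812, 1824 and 1852 in BiAux, against 1910, 2002 and 1945 in IAA and 2534, 1969 and 1910 in mock, so 1871 with BiAux stood next to 1910 without it, and mock 1 was far above the rest. ERF4, a repressor in ethylene responses, differed by -0.21 (SE 0.05), WRKY13 by -0.38 (SE 0.12) and MYB48 by -0.62 (SE 0.12). NCED3, the rate-limiting enzyme of abscisic acid synthesis under drought, had 827, 830 and 929 in BiAux+IAA and 828, 935 and 905 in BiAux, against 1705, 1669 and 1232 in IAA and 1193, 1003 and 982 in mock. Its IAA libraries were above all mock libraries, while BiAux+IAA and BiAux overlapped (-0.53, SE 0.09). CRK10, the 1 member of 20 tested cysteine-rich receptor kinases, differed by -0.48 (SE 0.08).

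Several members have known roles in detoxification and export, and are placed together here after their values were seen. AER, an alkenal reductase that clears reactive lipid breakdown products, had 290, 329 and 302 normalized counts in BiAux+IAA and 162, 237 and 263 in BiAux, against 504, 487 and 558 in IAA and 391, 487 and 494 in mock. BiAux+IAA lay above BiAux in every library, and both were below mock and IAA (-0.87, SE 0.11). UGT74E2, which glucosylates the auxin indole-3-butyric acid, had 1607, 1482 and 1861 in BiAux+IAA and 1108, 1736 and 1803 in BiAux, against 2360, 2348 and 3016 in IAA and 2103, 2932 and 2433 in mock. BiAux 1 and mock 1 were both the lowest libraries of their treatment (-0.67, SE 0.13). DTX1, a toxin exporter of the MATE family, had 132, 155 and 141 in BiAux+IAA and 169, 210 and 197 in BiAux, against 235, 250 and 401 in IAA and 268, 371 and 403 in mock (-0.86, SE 0.14).

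UGT74E2 and DTX1 belong to a list of 15 genes known to respond to mitochondrial dysfunction. All 15 had a negative difference, against 60.3% of the genes tested, with a median of -0.64. Only these 2 met the rule, which did not fix the sign of the other 13. In that list 6 genes were also called lower with IAA over both BiAux states, as were 285 of all 19338 genes tested. ABCB11, an ABC transporter, was the 1 member of 95 tested ABC genes and averaged 61.7% of its level without BiAux (-0.69, SE 0.14). UGT73B5 (-0.34, SE 0.05) and UGT74E2 were the 2 members of 47 tested UDP glycosyltransferases, GSTU22 (-0.42, SE 0.08) the 1 member of 40 glutathione transferases, and DTX1 the 1 member of 3 MATE genes. CYP82C2, CYP71B20 and CYP87A2 were the 3 members of 151 tested cytochrome P450 genes. Of these 151, 84 had a negative difference, with a median of -0.03. In that list 10 were called higher with BiAux and 7 lower, beside 144 and 214 of all genes tested. Negative differences numbered 28 in the UDP glycosyltransferases (median -0.05), 25 in the glutathione transferases (-0.10) and 69 in the ABC genes (-0.06). In the MATE list DTX1 alone was negative, with a median of 0.18. CYP82C2 had the largest log2 difference of all members, at 8, 16 and 10 in BiAux+IAA and 2, 20 and 18 in BiAux, against 41, 37 and 68 in IAA and 136, 91 and 82 in mock (-1.63, SE 0.20).

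SEN1, MGL, MLS and PLA2A belong to no list and are described together only by their size and known roles. SEN1, a gene known to be induced in darkness and senescence, had 401, 411 and 309 normalized counts in BiAux+IAA and 436, 442 and 365 in BiAux, against 903, 926 and 762 in IAA and 925, 746 and 991 in mock, at 45.0% of the level without BiAux. The 2 sets of libraries were far apart, and within each the libraries with and without IAA overlapped (-1.12, SE 0.10). MGL, methionine gamma-lyase, had 1876, 1697 and 1641 in BiAux+IAA and 2330, 2749 and 2775 in BiAux, against 2907, 2812 and 3197 in IAA and 3513, 3673 and 3877 in mock, with no overlap among the 4 treatments (-0.63, SE 0.06). MLS, malate synthase of the glyoxylate cycle, differed by -0.71 (SE 0.10), and PLA2A, a lipid acyl hydrolase induced by pathogens, by -1.01 (SE 0.11).

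A list of 18 genes for the breakdown of branched-chain amino acids was chosen after the members had been seen. Of these, 4 were members, whose sign the rule fixes. The other 14 had a negative difference too, against 60.3% of the genes tested. The list median was -0.15. AT1G21400, annotated as a thiamin diphosphate-binding protein and an E1 subunit of the branched-chain keto acid dehydrogenase, had 86, 138 and 86 normalized counts in BiAux+IAA and 79, 92 and 113 in BiAux, against 193, 201 and 179 in IAA and 146, 187 and 239 in mock (-0.85, SE 0.14). IVD, isovaleryl-CoA dehydrogenase, differed by -0.39 (SE 0.08) and MCCA, a subunit of methylcrotonyl-CoA carboxylase, by -0.38 (SE 0.07). AT2G26800, of the aldolase superfamily, was at 90.8% of its level without BiAux (-0.14, SE 0.05).

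Other members with large differences have less well known roles. AT5G43450, annotated as a 2-oxoglutarate and iron dependent oxygenase, had 188, 268 and 244 normalized counts in BiAux+IAA and 163, 269 and 272 in BiAux, against 284, 340 and 474 in IAA and 562, 794 and 853 in mock. The IAA libraries lay between those with BiAux and mock without overlap (-1.10, SE 0.16). SNG1, an enzyme that makes sinapoylmalate, averaged 51.1% of its level without BiAux (-0.95, SE 0.11), and IGMT4, an indole glucosinolate methyltransferase, 61.5% (-0.71, SE 0.09). AT5G66580 (-0.87, SE 0.10), AT4G15990 (-1.07, SE 0.15), AT1G07985 (-0.75, SE 0.12), AT1G19530 (-0.75, SE 0.16), AT2G25460 (-0.75, SE 0.07), AT4G39675 (-0.74, SE 0.16) and AT1G76600 (-0.65, SE 0.07) complete the 20 largest at a mean of at least 5 CPM.

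**Figure D3:**
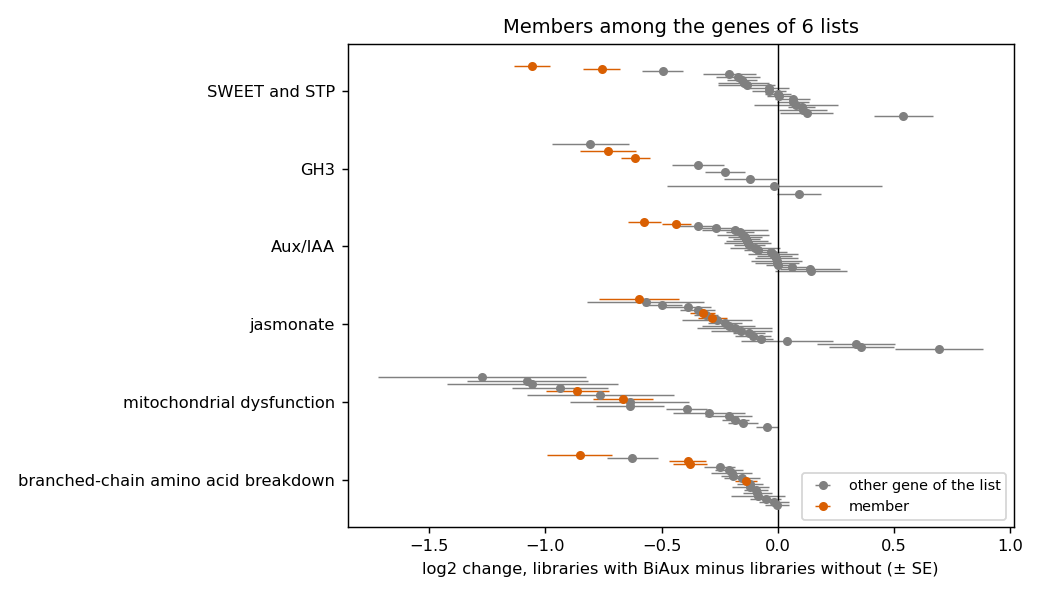
Log2 difference between libraries with and without BiAux, with its standard error, for every tested gene of 6 lists, members in orange and other genes in grey. Every gene of the mitochondrial dysfunction and branched-chain amino acid lists lies below 0, while members of the sugar transporter list stand apart from a list median of -0.04.

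Of the 29 lists, 12 held no member, among them salicylate and pipecolate, hypoxia, phosphate starvation, iron, glucosinolate, expansin and heat shock genes, and 29 members were in at least 1 list. In the phosphate starvation list 10 of 11 genes, and in the glucosinolate list 4 of 10, were called higher in the libraries with BiAux, as were 144 of all 19338 genes tested. The glucosinolate list does not contain IGMT4, and 0 of its genes had a negative difference. The remaining 71 members, of which 64 had a mean of at least 5 CPM, had differences between -1.30 and -0.09 with a median of -0.35. They are given as a group because the naming rule did not select them. Among the members in all, 130 are protein-coding and 2, AT1G69252 and AT4G13495, are noncoding, and 56 have an identifier but no symbol.

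IAA itself is a comparison the rule did not use, although it favours genes with little spread within each BiAux state. Over both BiAux states, 3 members were called for IAA by the same limits in either direction, which is 2.27% beside 2.09% of all genes tested. With adjusted p under 0.05 there were 7, or 5.30% beside 4.41%, so the members were close to the background in both counts. Among all members, 85 had a lower level with IAA, or 64.4% beside 46.6% of the genes tested.

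AT2G25460, which encodes a protein with an EEIG1/EHBP1 amino-terminal domain, had 265, 319 and 309 normalized counts in BiAux+IAA and 410, 492 and 488 in BiAux, and 545, 522 and 517 in IAA and 727, 735 and 821 in mock. It fell with IAA in both BiAux states, with no overlap (log2 change -0.56, SE 0.07, limma adjusted p 0.0014). MGL, given above, fell by 0.45 (SE 0.06, adjusted p 0.0025). IAA1 fell by 0.32 (SE 0.07, adjusted p 0.026), and AT5G66580 by 0.47 (SE 0.10, adjusted p 0.021). AT1G22890, a gene of low level and unknown function, was at 16, 18 and 20 in BiAux+IAA and 26, 26 and 25 in BiAux, and at 29, 37 and 39 in IAA and 53, 66 and 86 in mock, without overlap within either BiAux state (log2 change -0.50, SE 0.11, adjusted p 0.026).

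The rises were fewer. GRP3S, a glycine-rich protein, had 94, 107 and 80 normalized counts in BiAux+IAA and 31, 90 and 49 in BiAux, and 259, 321 and 220 in IAA and 153, 168 and 225 in mock. It was called at the unadjusted p (log2 change 0.59, SE 0.18), with an adjusted p of 0.085. GRP3S was the only member called higher, and no member was called higher without BiAux 1 or with a pseudocount of 2 CPM. UGT73B5 rose by 0.25 (SE 0.05, adjusted p 0.024) and MO1, a monooxygenase, by 0.20 (SE 0.05, adjusted p 0.039), both below the size limit.

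When the 2 BiAux states were taken apart, 10 members were called in IAA against mock (3 higher, 7 lower; 7.58% beside 3.29% of genes tested) and 4 in BiAux+IAA against BiAux (1 higher, 3 lower; 3.03% beside 2.74%). With adjusted p under 0.05 there were 0 in each, beside 0.284% and 0.16% of genes tested. An unadjusted limma p under 0.05 was found for 22 members in IAA against mock (16.7% beside 16.8% of genes tested) and for 25 in BiAux+IAA against BiAux (18.9% beside 10.5%). The counts of 0 depended on the fit: with the spread shared over all 12 libraries, 9 and 2 members had an adjusted p under 0.05, and without mock 1 there were 15 in IAA against mock, and without BiAux 1 there were 3 in BiAux+IAA against BiAux. In the comparison of BiAux+IAA with BiAux, 100 of the 132 members were lower with IAA (75.8% beside 44.2% of genes tested), and in that of IAA with mock 59 were (44.7% beside 49.3%). AT2G25460 and GRP3S were called in both.

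Whether the difference with BiAux depended on IAA was tested as an interaction. The member-wide median difference was -0.47 between BiAux+IAA and IAA and -0.32 between BiAux and mock, and 89 members had the larger one in the presence of IAA. Over all genes tested the medians were -0.01 and -0.04. At an unadjusted p under 0.05 and a size past 0.5, 9 members were called, or 6.82% beside 2.34% of the genes tested, and at the p alone 30 were, or 22.7% beside 7.94%. With adjusted p under 0.05 there were 0 members and 0 genes in all (0% of the genes tested). Since the rule limits both differences in direction, these shares are not independent of it.

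**Figure D4:**
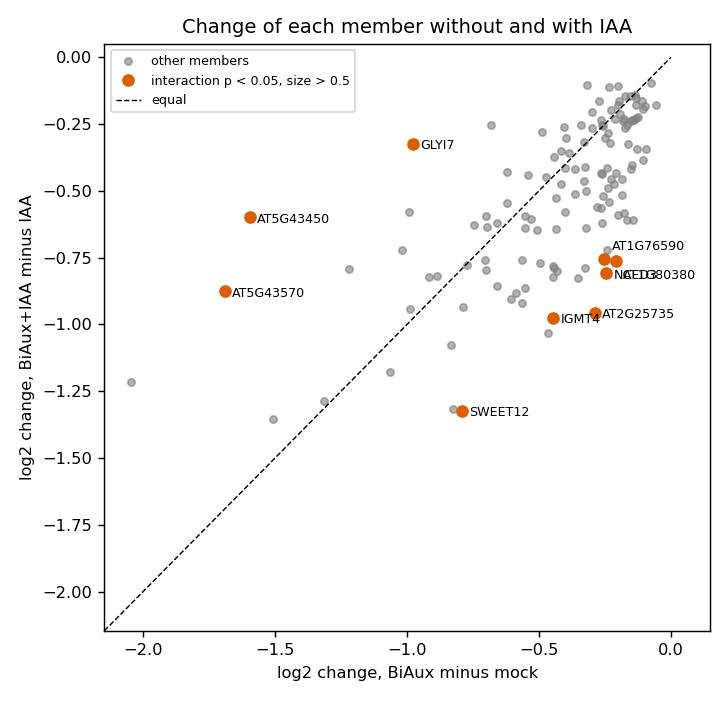
Log2 difference of each of the 132 members between BiAux and mock (horizontal) and between BiAux+IAA and IAA (vertical), with the line of equality dashed. The 9 members called in the interaction are in orange: 6 lie below the line, with the larger difference in the presence of IAA, and 3 above it.

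SWEET12 was lower by -1.32 (SE 0.09) in BiAux+IAA against IAA and by -0.79 (SE 0.10) in BiAux against mock, and the libraries given above show the BiAux+IAA levels below those of BiAux. NCED3 differed by -0.81 (SE 0.11) in BiAux+IAA against IAA and by -0.24 (SE 0.11) in BiAux against mock; here the IAA libraries were the ones above. AT5G43450 went the other way, at -0.60 (SE 0.17) in BiAux+IAA against IAA and -1.60 (SE 0.23) in BiAux against mock, with the mock libraries above those of IAA. The other called members were IGMT4, AT2G25735, AT1G76590 and AT1G80380 with the larger difference in the presence of IAA, and AT5G43570, a serine protease inhibitor, and GLYI7, of the glyoxalase I family, with the smaller one.

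The upstream windows of all 132 members were searched for 9 short motifs, in the 300 bases before each gene start and on both strands, and the shares were set beside those of 19267 tested genes. A match is only a description. TGACGT was in 18 members (13.6% beside 8.99%), CACGTG, the G-box, in 17 (12.9% beside 7.95%) and TTGAC in 78 (59.1% beside 50.7%). The auxin response element TGTCTC was in 13 (9.85% beside 12.7%), GCCGCC in 2 (1.52% beside 2.39%), the evening element AAAATATCT in 3 (2.27% beside 2.88%), GNATATNC in 10 (7.58% beside 6.54%), GAANNTTC in 16 (12.1% beside 11.2%) and the mitochondrial dysfunction motif in 3 (2.27% beside 1.68%). TTGAC and TGACGT can overlap.

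Stretches of some named members with TGACGT or CACGTG are shown because these were the motifs with the highest shares relative to all genes. Other named members hold a match but are not shown. They include CYP82C2, GRP3S and AT1G21400 for TGACGT, GLYI7 and ERF4 for CACGTG, and AT2G25460 for both. Capitals mark each match on either strand, and each stretch reaches up to 30 bases to its sides within the window. They lie at chr2:6453844-6453909 on the minus strand (GH3.1), chr4:8360936-8360995 on the plus strand (IAA1), chr5:5578096-5578163 on the minus strand (AER), chr1:29474055-29474120 on the minus strand (GSTU22), chr1:24028722-24028787 on the plus strand (MGL), chr5:17099596-17099631 on the minus strand (AOS) and chr1:29099718-29099824 on the plus strand (NAC032), all in TAIR10.1. In AER the 2 matches, 1 on each strand, form 1 palindrome, and among those shown NAC032 holds both motifs.

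GH3.1: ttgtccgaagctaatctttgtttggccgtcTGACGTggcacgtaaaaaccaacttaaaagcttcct

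IAA1: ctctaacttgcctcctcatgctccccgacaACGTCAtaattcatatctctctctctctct

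AER: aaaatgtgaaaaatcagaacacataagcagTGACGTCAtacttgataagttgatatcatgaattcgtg

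GSTU22: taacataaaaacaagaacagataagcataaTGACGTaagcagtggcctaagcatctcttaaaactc

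MGL: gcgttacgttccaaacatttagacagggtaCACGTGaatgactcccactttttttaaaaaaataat

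AOS: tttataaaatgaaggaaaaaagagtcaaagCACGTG

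NAC032: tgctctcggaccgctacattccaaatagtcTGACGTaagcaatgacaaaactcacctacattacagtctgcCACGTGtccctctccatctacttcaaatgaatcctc

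The members resembled other genes in length and level. Their median exonic length was 1667.5 bases beside 1782 for the genes tested, their median exonic GC content 40.8% beside 41.1%, and their median of mean normalized counts 609.2 beside 619.2. On chromosome 1 lay 44 members (33.3% beside 26.3% of genes tested) and on chromosome 3 lay 13 (9.85% beside 19.8%). Counted singly, 8 members were the direct neighbour of another member. Among them were the pair of protease inhibitor genes AT5G43570 and UPI (AT5G43580), and the pair AT1G76590 and AT1G76600. The share among all genes was not counted.

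Some values may share reads with other genes. Of the members, 31 overlap another annotated gene, 22 of them on the other strand, and whether counting used the strand is not stated in the sources used here. Near copies with at least 90% identity over 200 bases or more were found for ABCB11, IGMT4, AT1G21400, TPX2, DTX1, UGT73B5, CYP71B20, CYP82C2, AT4G33110, CPK1, AT5G13200, AER and AT5G27410. The levels of these genes are therefore uncertain.

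At the edge of the rule, separation was a matter of a few counts. AT1G69252 had 1939 in its highest library with BiAux and 1941 in its lowest without, RDUF2 919 and 920, ACD11 1859 and 1861, AT4G17840 571 and 572, and PERK9 1037 and 1039. In 10 tested genes the values were equal, and just outside the rule stood AT4G35210 (22), AT5G09210 (29), ERF13 (17), AT2G34655 (18) and IAA19 (196), each with that value on both sides. In 62 members the gap was under 0.05 on the log2 scale, and the median gap was 0.06. At the limit on the mean, CYP71B20 (17.8), WRKY13 (22.6), QQS (32.2), AT4G27250 (33.1) and UMAMIT25 (35.1) were inside, and AT1G16225 (6.42) and AT1G58848 (3.58) outside.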

How the data were processed

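Poly(A) RNA of Arabidopsis roots was sequenced by the authors as paired reads, with 3 libraries per treatment. Per their methods, the authors trimmed reads with Trimmomatic, used STAR to align them to TAIR10, HTSeq to count them on Araport11 genes and edgeR to normalize them; the submitters' processing notes name HISAT2 instead of STAR. The table deposited by the authors holds log2 values of whole normalized counts plus 1, to 3 decimals. Of the values up to 8, 100% are whole on the linear scale within 0.0006 on the log2 scale. The scaling behind them is not given in the sources used here. The authors' own comparisons were used for no value.

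Values were returned to the linear scale, and genes reaching a mean of 0.5 CPM (16.3 normalized counts) were tested on log2(value + 16.3) in R 4.3.3 by limma 3.58.1 (lmFit, then eBayes with a trend), on all 12 libraries or, for IAA against mock and BiAux+IAA against BiAux, on their own 6. The study's methods give limits of 0.05 on p and 0.5 on the log2 change and also name a Benjamini-Hochberg correction; here calls used the p without adjustment, and counts with that adjustment, over 19338 genes, stand beside them. The fold change of a low gene is understated on this scale. The steps were tested on simulated data. Python 3.11.15 (numpy 2.4.6, pandas 2.3.3) wrote the tables, matplotlib 3.10.9 the figures, and blastn 2.17.0 found near copies.

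Groups come from the titles. The titles' replicate numbers were checked for pairing: the deviations of same-numbered libraries correlated at 0.78, 0.41 and 0.58 between BiAux and mock, but at 0.04, -0.40 and 0.33 between IAA and mock. Members and lists were chosen with earlier results of these data known, and the list for branched-chain amino acids after the members were seen. Auxin response factors with an old IAA name, SWEETIE and wrongly matched P450 symbols were removed from their lists after the table was seen. Named genes were the 20 largest differences at a mean of at least 5 CPM, members of any list, members called for IAA or in the interaction, members with the printed sequences and those nearest the rule's limits; UPI, TPX2, CPK1 and some list genes were named after their values were seen. Symbols and sequences came from RefSeq's TAIR10.1, which held 20694 of the 20814 identifiers.

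Alternatives tried: a pseudocount of 0.1 or 2 CPM, a minimum mean of 5 CPM or none, factors from the median of ratios (0.923 to 1.06), the deposited log2 values, all 12 libraries in 1 fit, the replicate block and each library left out in turn. The tir1-1 mutant was not analysed here.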

Additional observations from a re-analysis of the deposited data

Results flagged for a closer look

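Limma's interaction term called 9 members, for which both its size had to be past 0.5 and its p, not adjusted, below 0.05. These are 6.82% of the members, beside 2.34% of the genes tested. The p limit alone was met by 30 members, or 22.7% beside 7.94%. The adjusted p of the 9 lay between 0.484 and 0.536, and 0 of all genes tested passed 0.05 after adjustment. The shares are not independent of the rule that chose the members.

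The log2 interaction, which is negative where the difference was larger in the presence of IAA, was -0.53 for SWEET12 (SE 0.15, limma p 0.0044), -0.53 for IGMT4 (SE 0.17, p 0.0101) and -0.56 for NCED3 (SE 0.17, p 0.00696). IGMT4 had 756, 757 and 568 normalized counts in BiAux+IAA and 987, 993 and 937 in BiAux, against 1288, 1353 and 1467 in IAA and 1262, 1189 and 1564 in mock. It was -0.67 for AT2G25735 (SE 0.22, p 0.0117), -0.50 for AT1G76590 (SE 0.18, p 0.0154) and -0.56 for AT1G80380 (SE 0.18, p 0.00934).

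It was positive, with the smaller difference in the presence of IAA, for AT5G43570 (0.81, SE 0.22, p 0.00352), AT5G43450 (1.00, SE 0.33, p 0.01) and GLYI7 (0.65, SE 0.18, p 0.00393). AT5G43570 had 39, 44 and 43 in BiAux+IAA and 34, 48 and 48 in BiAux, against 97, 85 and 90 in IAA and 145, 162 and 226 in mock.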

How the results depend on the processing

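The number of members rose most without mock 1 or mock 2. Leaving out 1 library at a time gave between 143 and 343 genes in place of 132, with 343 without mock 1 and 222 without mock 2. Apart from the limit on the mean, leaving out a library can only raise this number. With a pseudocount of 2 CPM, the IAA calls among members became 1 over both BiAux states, 4 for IAA against mock, 2 where BiAux+IAA was set against BiAux, and 196 genes in all were called for BiAux in place of 358. With a mean of at least 5 CPM the calls over both BiAux states became 1 and those for IAA against mock 4, with 189 genes called for BiAux, since fewer genes were tested.

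With 1 library left out at a time, between 2 and 6 members were called for IAA over both BiAux states (6 without IAA 3, and 5 without BiAux+IAA 2 or BiAux+IAA 3), between 5 and 15 in the interaction (5 without mock 2, 15 without mock 3), between 6 and 10 for IAA against mock (6 without IAA 2), between 3 and 5 for IAA in the presence of BiAux, and between 304 and 458 genes were called for BiAux. The cause was not tested.

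The 698 values for single genes kept their direction under every alternative that could give a value. Of these, 380 were the BiAux effect of the 20 members with the largest differences. The rule fixed that direction in all but the rescaling by median-of-ratios factors. The other 150 for IAA and 168 in the interaction were of members picked by their p in the main fit. They kept their side of p 0.05. With the replicate block, 3 members were called for IAA, 9 in the interaction, 10 for IAA against mock, 4 for IAA in the presence of BiAux, the same counts of calls as without it, and 391 genes were called for BiAux. With the block, the members with an adjusted p under 0.05 numbered 11 in place of 7 for IAA over both BiAux states and 1 in place of 0 for IAA against mock, and those with an unadjusted p under 0.05 numbered 26 in place of 30 in the interaction. Leaving out 1 library at a time gave between 2 and 9 in place of the 7. The numbers pair BiAux with mock only. Since the original depth is unknown, no limit from counting can be given.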
